A study of Mus musculus with 30 samples.

Results

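The 44 genes described here encode the contractile apparatus of skeletal muscle and the proteins that fuel and trigger it. They were followed in satellite cells, the stem cells of muscle, and were taken by gene symbol from 55154 gene identifiers shared by 3 tables of RNA-seq counts. All 44 were found in each table. They were divided by isoform into 5 genes of embryonic or immature muscle (Actc1, Myh3, Myh8, Myl4 and Tnnt2), 15 of mature fast fibres, 8 of mature slow fibres and 16 common to fibre types.

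The cells came from hind limb skeletal muscle of C57BL/6 mice, in 30 libraries that form 15 groups of 2. The time groups are uninjured cells and cells taken 0.5, 1, 2, 4, 8, 16, 32 and 60 h and 7, 14 and 28 days after injection of barium chloride, which destroys muscle fibres and spares many satellite cells. The old groups are oASC (2.5 days after injury), oFISC (freshly isolated, although the treatment label also reads injury) and oQSC (fixed in place, no injury). The protocol states perfusion with paraformaldehyde, a fixative, for all groups, while fixation is named for the oQSC and time groups but not for oASC and oFISC. The labels give no age for any group, and nothing in them says that a pair of libraries stems from different animals, so the errors and p-values measure only the spread between these samples. The word younger stands for all cells that carry no old label.

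A sarcomere is built of thin filaments of actin, tropomyosin and troponin, thick filaments of myosin, and the giant protein titin that spans between the Z disc and the M band. Muscle uses different isoforms of these proteins in a fixed order during development and again during repair. Embryonic forms such as Myh3 (embryonic myosin heavy chain), Actc1 (cardiac alpha actin) and Tnnt2 (cardiac troponin T) are made first, when myoblasts differentiate and fuse, and are replaced by the adult fast or slow forms such as Myh4 (myosin of fast glycolytic fibres) and Acta1 (skeletal alpha actin). Satellite cells hold no sarcomeres, and most of these genes belong to the fibres that surround them.

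Levels are given as CPM, counts scaled to the size of the library with all 30 libraries scaled together, in the order library 1 and library 2 of a group. Total counts were 9182407 to 57441790 per library, and the 44 genes took 0.0797% to 0.309% of them. A gene was called at an adjusted p under 0.05 in the edgeR quasi-likelihood test (Benjamini-Hochberg adjustment over all genes tested in a comparison). In bulk RNA, fewer cells of a type and less RNA per cell cannot be told apart. The libraries of 0.5, 1, 2 and 4 h lie far apart within their groups. Pax7, which marks satellite cells, was at 781 and 134 CPM (0.5 h), 565 and 147 CPM (1 h), 117 and 758 CPM (2 h), and 993 and 69.6 CPM (4 h). It was at 1746 and 1555 CPM in uninjured cells. A list of 12 satellite cell markers, Pax7 among them, did not follow Pax7. It summed to 7431 and 20560 CPM (0.5 h) and 6833 and 16453 CPM (1 h). At 2 h the sums were 17078 and 10733 CPM, at 4 h 11258 and 20048 CPM, and in uninjured cells 6864 and 6902 CPM. Low Pax7 in these libraries thus did not go with a low sum of the list.

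The promoters of 4 members are shown because their genes follow opposite courses, with Actc1 and Myh3 high at 60 h and in oASC cells, and Ckm (muscle creatine kinase) and Myh4 at 0 or low in uninjured cells and at 60 h. Each is the 250 bases before the RefSeq transcription start, 5′ to 3′ on the gene's own strand (GRCm38.p6). Capitals mark matches on either strand to CAGCTG (an E box, the kind of site bound by Myod1 and Myog), TATAAA, the MEF2 box and the CArG box, the site of serum response factor.
Actc1, chr2:114052876-114053125, minus strand: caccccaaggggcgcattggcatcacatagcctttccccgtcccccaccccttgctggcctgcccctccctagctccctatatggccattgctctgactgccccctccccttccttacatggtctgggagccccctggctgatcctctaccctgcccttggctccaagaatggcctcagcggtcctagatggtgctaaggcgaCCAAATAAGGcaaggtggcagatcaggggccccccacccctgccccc
Myh3, chr11:67078050-67078299, plus strand: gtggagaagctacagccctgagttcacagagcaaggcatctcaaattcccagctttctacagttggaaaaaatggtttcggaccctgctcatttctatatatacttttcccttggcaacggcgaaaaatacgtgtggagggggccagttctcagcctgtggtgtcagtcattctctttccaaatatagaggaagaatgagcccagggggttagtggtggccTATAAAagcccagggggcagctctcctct
Ckm, chr7:19410844-19411093, plus strand: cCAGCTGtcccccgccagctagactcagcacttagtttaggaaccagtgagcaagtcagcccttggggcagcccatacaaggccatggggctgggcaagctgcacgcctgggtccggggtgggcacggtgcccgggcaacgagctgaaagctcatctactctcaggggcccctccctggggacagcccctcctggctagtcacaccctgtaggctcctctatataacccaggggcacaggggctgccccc
Myh4, chr11:67237562-67237811, plus strand: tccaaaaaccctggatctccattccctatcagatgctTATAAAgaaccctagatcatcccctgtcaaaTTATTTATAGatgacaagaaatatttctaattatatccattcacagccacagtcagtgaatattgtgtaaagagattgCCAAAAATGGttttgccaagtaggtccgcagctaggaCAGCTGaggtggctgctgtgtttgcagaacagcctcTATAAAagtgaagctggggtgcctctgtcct

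The window of Actc1 holds a CArG box, that of Myh3 a TATAAA and that of Ckm a CAGCTG, while that of Myh4 holds all 4 motifs. Its MEF2 box overlaps a TATAAA match on the other strand. RefSeq windows were found for 36 of the 44 members, 45 windows in all since some genes have several starts. Of these 45, 42.2% held CAGCTG, 20% TATAAA, 11.1% a MEF2 box and 15.6% a CArG box, beside 13%, 12.4%, 2.92% and 1.47% of 32851 windows of all genes outside chromosome 18. These matches describe the letters in the windows, and no test was made of them. In the annotation of mouse genes (GENCODE M21, GRCm38), Actc1 lies on the minus strand at chr2:114047282-114053548, Ttn on the same strand at chr2:76703980-76982547 and Ckm on the plus strand at chr7:19404776-19422841. Myh3 (chr11:67078300-67102291, plus strand) stands in 1 cluster with Myh2, Myh1, Myh4 and Myh8.

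**Figure D1:**
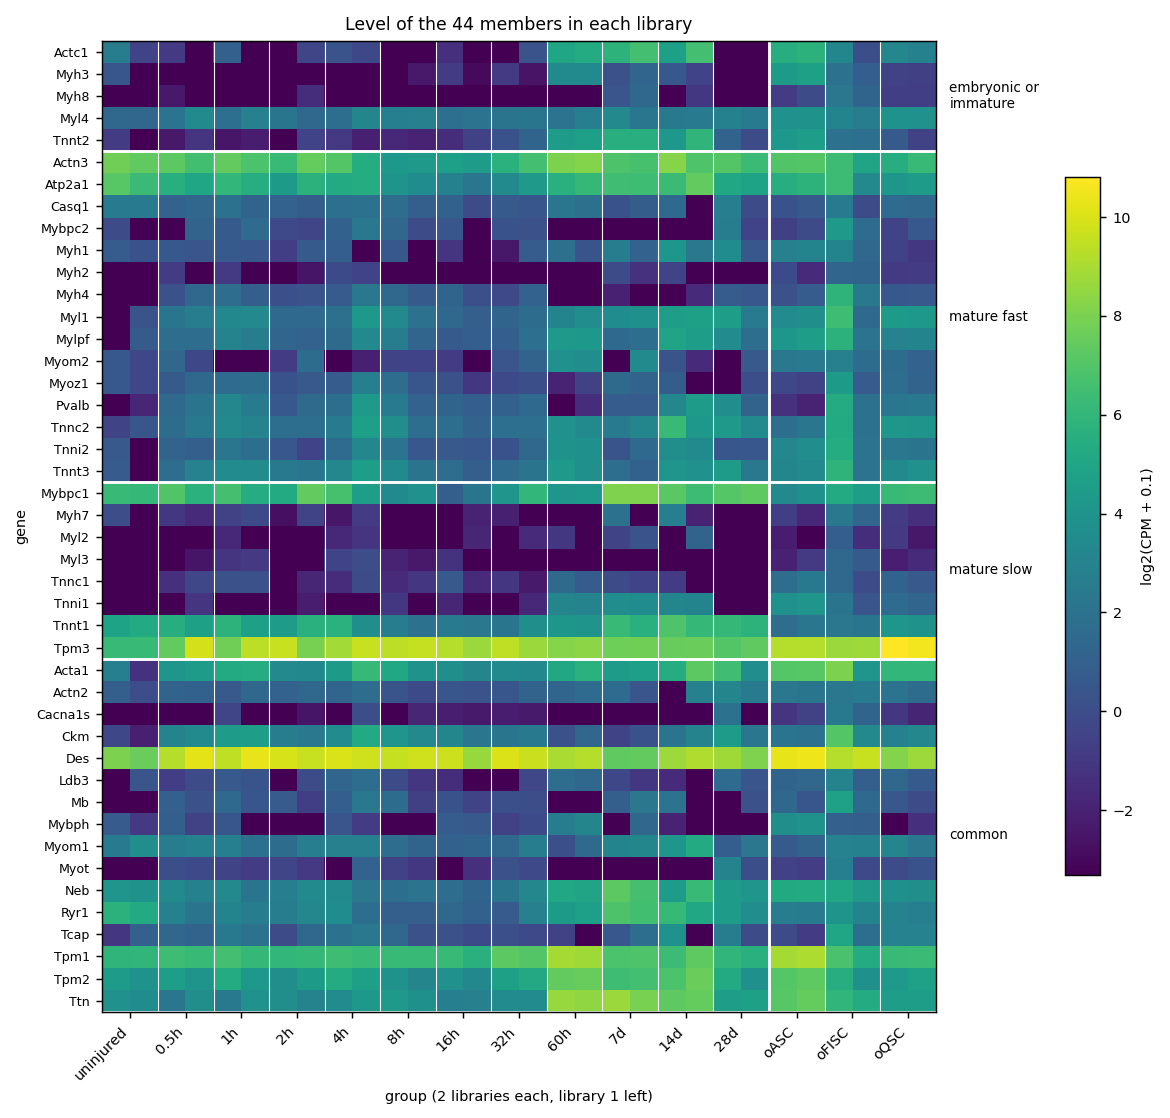
Levels of the 44 members (rows, by isoform class) in the 30 libraries (columns, 2 per group), as log2(CPM + 0.1), from dark (low) to bright (high). Des and Tpm3 are bright throughout, Ttn, Tpm1 and Tpm2 are bright at 60 h and in oASC, and most fast and slow myosin genes are dark except in oFISC library 1.

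In uninjured cells a few members were well expressed and most were near 0. Per kilobase of annotated exon (GENCODE M21), Actn3, the alpha actinin of fast Z discs, was highest at 64.7 ± 11.9 CPM per kb (SD, n = 2). It was followed by Des (desmin, the intermediate filament of muscle cells) at 59.9 ± 12.3, Atp2a1 (the calcium pump SERCA1) at 31.9 ± 13.3, Mybpc1 (slow myosin binding protein C) at 15.9 ± 1.24 and Tnnt1 (slow troponin T) at 15.5 ± 3.23 CPM per kb. Actn3 and Des do not differ beyond their spread, nor do Mybpc1 and Tnnt1. Actn3 was at 212 and 163 CPM, Des at 257 and 192 CPM, Mybpc1 at 76.2 and 68.2 CPM and Ryr1, the calcium release channel of the sarcoplasmic reticulum, at 54.0 and 40.5 CPM. The actin of adult fibres, Acta1, was at 6.89 and 0.325 CPM, and Myh4, Mb (myoglobin), Myot, Tnnc1, Tnni1, Myh2, Myh8, Myl2, Myl3 and Cacna1s had no count in either uninjured library. Immature genes were low too, with Actc1 at 6.06 and 0.651 CPM and Myh3 at 1.29 and 0 CPM. A count of 0 over these libraries allows up to 3 counts.

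**Figure D2:**
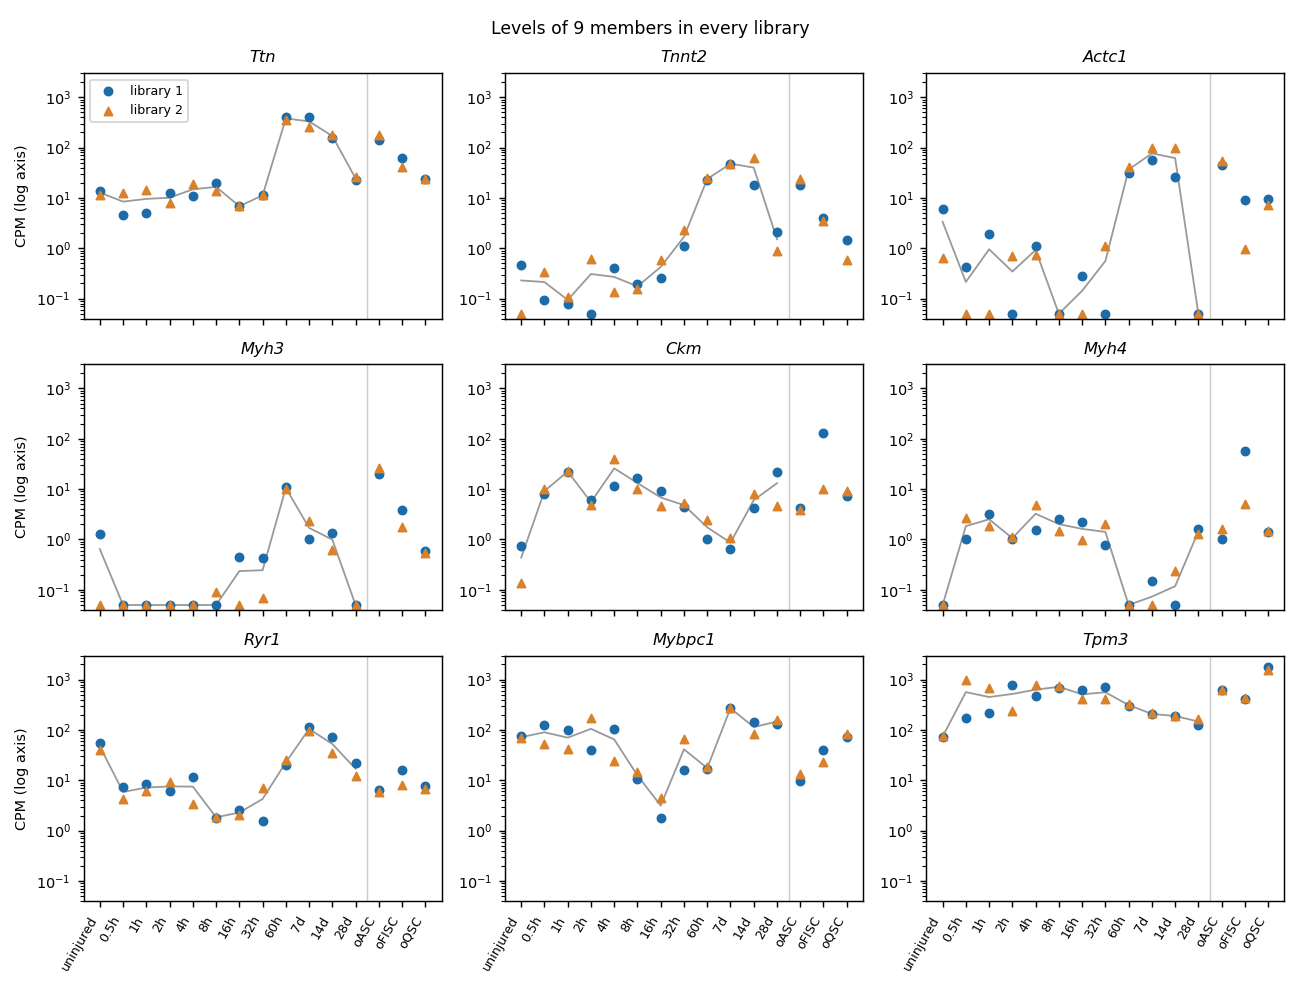
CPM (log axis, values of 0 drawn at 0.05) of 9 members in every library, with circles for library 1 and triangles for library 2, and a line through the group means of the time course; the old groups stand right of the vertical line. Ttn, Tnnt2, Actc1 and Myh3 peak between 60 h and 14 days, Ryr1 is lowest at 8 to 32 h and Mybpc1 at 16 h, and Ckm and Myh4 are present at 0.5 to 32 h and near 0 in uninjured cells.

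Within 0.5 to 4 h of injury, adult fibre genes that were at or near 0 in uninjured cells were present at low levels. Ckm, the creatine kinase that buffers ATP in muscle fibres, was at 8.04 and 10.3 CPM (0.5 h), 21.8 and 23 CPM (1 h), 6.11 and 4.94 CPM (2 h), and 11.4 and 40.5 CPM (4 h), against 0.735 and 0.139 in uninjured cells. All 8 injured libraries lie above both uninjured ones, and the log2 fold changes were 4.48 ± 0.84, 5.79 ± 0.87, 3.80 ± 0.82 and 6.00 ± 0.88 (SE, n = 2 per group; adjusted p = 0.00792, 0.00298, 0.0155 and 0.00278). The fast myosin Myh4, at 0 in uninjured cells, was at 1.04 and 2.64 CPM (0.5 h) and 1.58 and 4.92 CPM (4 h), at least 19.9-fold and at least 35.1-fold higher when uninjured cells are set at 3 counts summed over both libraries. At 1 and 2 h the bounds were at least 27.2-fold and at least 11.5-fold. Mb, the oxygen store of fibres, was at least 16.1-fold, 21.9-fold, 11.2-fold and 35.7-fold higher at the 4 times. Pvalb (parvalbumin, a calcium buffer of fast fibres) was at 9.35 and 5.71 CPM (1 h) and 3.31 and 20.3 CPM (4 h), against 0 and 0.186 in uninjured cells (5.98 ± 1.3 and 6.64 ± 1.33). It rose at 0.5 h also, by 4.86 ± 1.27. At 1 and 4 h Acta1, the fast light chain Myl1, fast troponin T Tnnt3 and the fast troponin C gene Tnnc2 rose as well, Acta1 to 39.2 and 43.8 CPM (1 h) and 20.5 and 71.9 CPM (4 h).

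At 4 h library 2 was the higher for Ckm, Myh4, Mb, Pvalb, Acta1, Myl1, Tnnt3 and Tnnc2, and it also had the lower Pax7. At 1 h the calls of Acta1, Myl1, Tnnt3 and Tnnc2 were lost without either 1 h library. Without 4 h library 2, calls at 4 h were lost for Acta1, Des, Myl1, Pvalb, Ryr1, Tnnc2, Tnnt3 and Tpm3, and 3 of the 11 calls remained. Ckm kept its call at 1 and 4 h under every alternative run. At 0.5 h it lost the call without uninjured library 2, and at 2 h under 2 alternatives, among them without 2 h library 1. Myh4 and Mb lost theirs at 0.5, 1, 2 and 4 h without either uninjured library. Markers of some other cell types were higher too at these times. The 10 endothelial genes summed to 105 to 153 CPM (0.5 h), 183 to 212 at 1 h, 87.6 to 100.5 at 2 h and 123 to 281 CPM (4 h), against 37.3 to 73.8 CPM in uninjured cells. Of them 3, 7, 1 and 7 rose, beside 6.88%, 6.57%, 6.32% and 7.18% of all genes. Immune cell markers summed to 48.5 to 58.2 CPM (0.5 h), 23.5 to 79.0 (1 h), 13.6 to 90.9 (2 h) and 33.1 to 137 CPM (4 h), against 5.63 to 7.9 CPM in uninjured cells. Fibro-adipogenic and fibroblast markers summed to 1265 to 2914 CPM, against 1185 to 1347 CPM. Red cell markers summed to 60.0 to 653 CPM at these times, against 60.5 to 68.3 CPM in uninjured cells. The part of these markers in the result was not tested.

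Other members moved at these times in the opposite way or with a wide spread. Ryr1 was at 7.42 and 4.32 CPM (0.5 h) and 11.6 and 3.38 CPM (4 h), against 54.0 and 40.5 in uninjured cells, and fell by 3.05 ± 0.68, 2.74 ± 0.67, 2.64 ± 0.66 and 2.68 ± 0.66 on the log2 scale at 0.5, 1, 2 and 4 h (adjusted p = 0.0163, 0.0234, 0.0283 and 0.0252). Without either uninjured library these 4 calls were lost. Des rose at all 4 times, to 609 and 1215 CPM at 0.5 h for example, by 1.99 ± 0.46, 2.09 ± 0.46, 2.00 ± 0.46 and 2.06 ± 0.46, also lost without either uninjured library. Tpm3, which encodes slow tropomyosin in fibres and a cytoskeletal form in other cells, was at 169 and 963 CPM (0.5 h), 215 and 687 CPM (1 h), 796 and 243 CPM (2 h) and 465 and 800 CPM (4 h). All of these lie above the 73.2 and 74.4 CPM of uninjured cells, and in each pair the library with less Pax7 had more Tpm3. Mybpc1 ran the other way, at 128 and 52.1 CPM (0.5 h), 98.5 and 42.2 CPM (1 h), 39.2 and 172 CPM (2 h) and 106 and 24.0 CPM (4 h), which overlaps the uninjured range and was not called. Tnnt1 and Actn3 split in the same order as Mybpc1 in each pair.

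In all, 6 members were higher and 1 lower at 0.5 h of 42 tested, where 10.3% of all genes were called, 6.88% higher and 3.42% lower. At 1 h 10 were higher and 2 lower (10.2% of all genes called, 6.57% higher and 3.64% lower), at 2 h 5 and 1 (9.31%, 6.32% higher and 2.99% lower), and at 4 h 10 and 1 (11%, 7.18% higher and 3.8% lower). The median log2 fold change of the members was 0.74, 1.04, 0.54 and 1.56, beside 0.24, 0.16, 0.18 and 0.17 over all genes tested. Myh8 and Myl2 had too few counts to be tested in the time course to 60 h. No immature gene was called at these times. Without uninjured library 1 or 2 or a library of the time itself, the number called ran over 2 to 7 members at 0.5 h, 3 to 6 at 1 h, 0 to 6 at 2 h and 3 to 14 at 4 h.

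**Figure D3:**
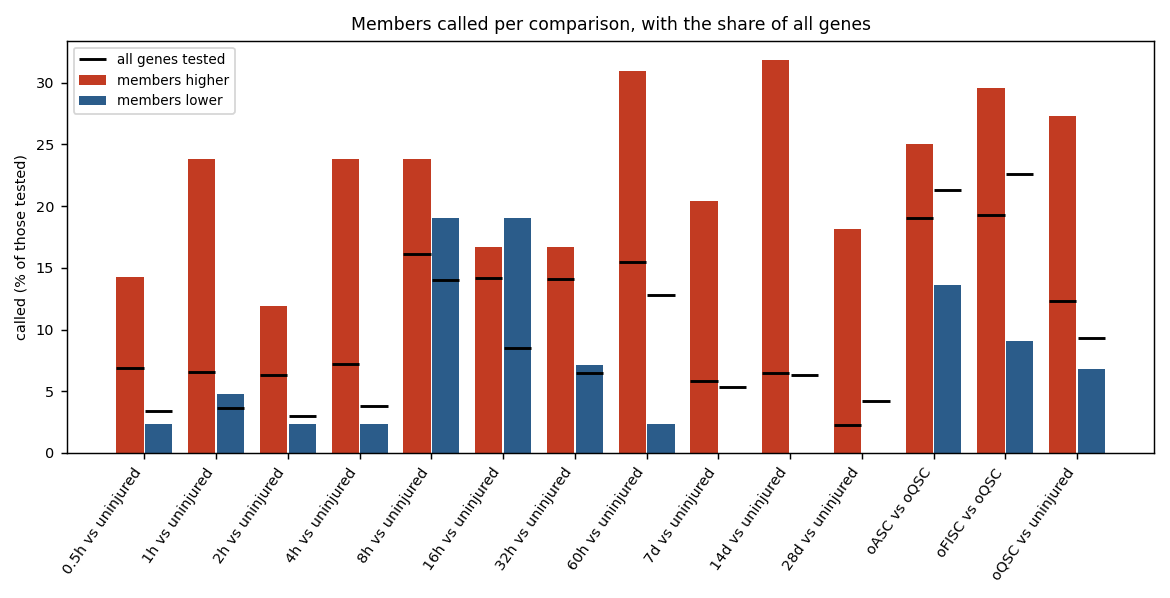
Share of the tested members called higher (left bar) and lower (right bar) in 14 comparisons, in percent, with black lines for the share of all genes tested called in the same direction. At 60 h 13 members were higher and 1 lower of 42 tested, and at 14 days 14 were higher and none lower of 44.

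At 8 and 16 h several members that uninjured cells expressed fell. Ryr1 was at 1.82 and 1.87 CPM (8 h) and 2.58 and 2.00 CPM (16 h), against 54.0 and 40.5 in uninjured cells. It fell by 4.71 ± 0.73 and 4.36 ± 0.72 on the log2 scale (n = 2 per group; adjusted p = 0.00245 and 0.00235). Atp2a1 was at 16.1 and 11.6 CPM (8 h) and 7.41 and 4.61 CPM (16 h), against 144 and 78.3 in uninjured cells (log2 fold changes -3.03 ± 0.52 and -4.20 ± 0.55, adjusted p = 0.00317 and 0.000856). Rabep2, which overlaps 21.9% of the exon length of Atp2a1 on the other strand, was at 18.4 to 33.6 CPM at 8 and 16 h and 28.7 and 16.5 CPM in uninjured cells. Actn3 was at 18.1 and 20.2 CPM (8 h) and 25.3 and 21.1 CPM (16 h), against 212 and 163 in uninjured cells, and fell by 3.32 ± 0.57 and 3.01 ± 0.57. These 6 calls held under every alternative run. The injured and uninjured libraries do not overlap for any of these 3 genes.

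Several slow and giant sarcomere genes fell with them. Mybpc1 was at 10.7 and 14.3 CPM (8 h) and 1.81 and 4.48 CPM (16 h), against 76.2 and 68.2 in uninjured cells (log2 fold changes -2.56 ± 0.88 and -4.50 ± 0.96, adjusted p = 0.0445 and 0.00742). Without either uninjured library or either 8 h library the 8 h call was lost, and the 16 h call without 16 h library 1. Tnnt1 fell by 2.78 ± 0.70 and 2.68 ± 0.70, Neb (nebulin, the ruler of thin filaments) by 2.09 ± 0.53 and 2.51 ± 0.53, and Myom1 (myomesin, an M band protein) by 1.77 ± 0.63 and 2.09 ± 0.63. Casq1 (calsequestrin, the calcium store of fast fibres) fell by 1.93 ± 0.52 at 16 h. Each of these lost its call without at least 1 library. Mybph, a relative of myosin binding protein C, had no count at 8 h, at least 19.1-fold lower against 1.56 and 0.418 CPM in uninjured cells. It shares 49.9% of its exon length with Adora1 on the other strand, which was at 0.198 and 0.275 CPM at 8 h and 16.1 and 8.18 CPM in uninjured cells.

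The adult fibre genes seen at 4 h were still present at 8 to 32 h. Ckm was at 16.5 and 9.91 CPM (8 h), 9 and 4.66 CPM (16 h) and 4.37 and 5.25 CPM (32 h), against 0.735 and 0.139 in uninjured cells (5.02 ± 0.85, 4.10 ± 0.83 and 3.59 ± 0.82; adjusted p = 0.00312, 0.00585 and 0.0101). Myh4 was at least 21.8-fold, 17.5-fold and 15.3-fold higher. Without uninjured library 2 the calls of Ckm at 16 and 32 h and that of Myh4 at 32 h were lost. Endothelial markers summed to 147 to 209 CPM (8 h), 68.3 to 85.0 CPM (16 h) and 110 to 151 CPM (32 h). Of the 10, 6, 2 and 6 rose, beside 16.1%, 14.2% and 14.1% of all genes. Immune cell markers summed to 45.5 to 46.0 CPM (8 h), 37.9 to 48.8 CPM (16 h) and 93.3 to 530 CPM (32 h), against 5.63 to 7.9 CPM in uninjured cells. The part of both lists in the calls at 8 to 32 h was not tested. Tpm3 was at 688 and 751 CPM (8 h), 610 and 412 CPM (16 h) and 702 and 420 CPM (32 h) (3.26 ± 0.83, 2.80 ± 0.82 and 2.93 ± 0.82), and Des at 758 and 874 CPM (8 h), 850 and 404 CPM (16 h) and 1075 and 808 CPM (32 h) (1.83 ± 0.46, 1.49 ± 0.45 and 2.07 ± 0.46). Without uninjured library 2 all of these 6 calls were lost. At 32 h the broadly expressed tropomyosin gene Tpm1 was at 154 and 133 CPM, against 61.1 and 62.0 in uninjured cells (1.22 ± 0.29, adjusted p = 0.0126), a call lost without either uninjured library.

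Counted together, 10 members were higher and 8 lower at 8 h, where 30.1% of all genes were called, 16.1% higher and 14% lower. At 16 h 7 were higher and 8 lower (22.7%, 14.2% higher and 8.5% lower), and at 32 h 7 and 3 (20.5%, 14.1% higher and 6.44% lower). The count at 32 h lies near the share of all genes. No immature gene was called. Over the 9 groups to 60 h, 21 of 42 members changed (24.7% of all genes did), with the smallest adjusted p for Ttn (3.44e-05), Tpm1 (9.71e-05) and Tpm2 (0.000409).

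At 60 h a set of genes of early sarcomere assembly was high in both libraries. Ttn, which encodes titin, was at 399 and 360 CPM, against 14.0 and 11.7 in uninjured cells, a log2 fold change of 4.88 ± 0.63 (n = 2 per group; adjusted p = 0.000316). At 32 h it was still at 11.2 and 11.2 CPM, so the change lies between 32 and 60 h (5.07 ± 0.63, adjusted p = 0.00244, where 5 members were higher and 2 lower and 3.69% of all genes were called, 1.04% higher and 2.65% lower, at a median of -0.18 over all genes). Both calls of Ttn held under every alternative. The tropomyosins Tpm1 and Tpm2 were at 472 and 449 CPM and at 170 and 185 CPM at 60 h, against 61.1 and 62.0 CPM and 22.1 and 15.3 CPM in uninjured cells (2.89 ± 0.31 and 3.24 ± 0.49, adjusted p = 0.000136 and 0.000722). Tnnt2 was at 22.5 and 25.0 CPM, against 0.459 and 0 CPM (6.91 ± 1.5, adjusted p = 0.00541). The slow troponin I gene Tnni1, which immature fibres also use, was at 8.68 and 7.96 CPM, at least 89.8-fold higher than in uninjured cells, which had no count. Its call was lost with DESeq2, with the replicate block and without any of the 4 libraries. Tnnc1, slow and cardiac troponin C, was at 2.81 and 1.66 CPM and at least 24.1-fold higher, a call lost without uninjured library 2.

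The immature actin and myosin were also high, without a call against uninjured cells. Actc1 was at 31.3 and 41.7 CPM at 60 h, against 6.06 and 0.651 CPM (3.45 ± 2.05, adjusted p = 0.22), and Myh3 at 11.0 and 10.2 CPM, against 1.29 and 0 CPM (4.11 ± 1.81, adjusted p = 0.119). For both genes the groups do not overlap, and uninjured library 1 holds 66 of the 80 uninjured counts of Actc1 and all 14 of Myh3. Across the 9 groups to 60 h both changed (adjusted p = 0.031 and 0.0166), though not with DESeq2. Their promoters are among those printed above. Myh8, the perinatal myosin, had no count at 60 h, and Myl4, the embryonic light chain, was at 4.00 and 6.56 CPM, against 2.57 and 2.42 CPM.

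Adult fibre genes, of the fast and the common class, divided at 60 h. Mylpf, the fast regulatory light chain, was at 19.4 and 18.1 CPM, against 0 and 1.49 in uninjured cells (4.54 ± 1.06, adjusted p = 0.00774). Tnnt3 was at 20 and 13.6 CPM, against 1.56 and 0 CPM (4.54 ± 1.18, adjusted p = 0.0131), and both calls held under every alternative. Tnni2 (fast troponin I) and Myl1 rose by 4.40 ± 1.25 and 4.02 ± 1.06, and Acta1 was at 35.3 and 52.5 CPM, against 6.89 and 0.325 CPM (3.63 ± 0.99, adjusted p = 0.0165). Without 60 h library 2 the last 3 lost their calls. By contrast, Ckm was at 1.02 and 2.47 CPM, and Myh4 and Mb had no count at 60 h. Against 32 h, Myh4 was at least 22.1-fold and Mb at least 15.1-fold lower. Those calls were lost without either 60 h library. Tnnc2 was at 14.0 and 10.6 CPM, against 0.643 and 1.26 in uninjured cells (3.65 ± 0.78), a call lost without uninjured library 1. It shares 74.0% of its exon length with Ube2c, a gene of mitosis on the other strand, which was at 181 and 173 CPM at 60 h and 1.01 and 0.326 CPM in uninjured cells. SMART-Seq v4 libraries keep no strand, so reads of this stretch cannot be told apart.

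The genes that had fallen by 16 h were higher again at 60 h than at 32 h for Atp2a1, at 50.7 and 68.6 CPM against 10.6 and 20.2 CPM (1.96 ± 0.50, adjusted p = 0.0485), and Neb, at 33.5 and 30.3 CPM against 4.34 and 9.24 CPM (2.23 ± 0.53, adjusted p = 0.0358). Both calls were lost without any 1 of the 4 libraries. Actn3 was at 264 and 289 CPM (60 h) and 51.7 and 97.8 CPM (32 h) (adjusted p = 0.0759). Myom1 was the only member lower at 60 h than in uninjured cells in the edgeR test, at 0.978 and 2.77 CPM against 5.88 and 12.5 CPM (-2.30 ± 0.64, adjusted p = 0.0184), a call lost without uninjured library 2 or 60 h library 1. Des rose to 527 and 612 CPM (1.33 ± 0.45, adjusted p = 0.044), a call lost without any 1 of the 4 libraries. In all 13 of 42 members were higher and 1 lower at 60 h, where 28.3% of all genes were called, 15.5% higher and 12.8% lower. By class 1 of 4 immature, 5 of 15 fast, 2 of 7 slow and 5 of 16 common genes were higher. The median log2 fold change of the members was 1.05, beside 0 over all genes. Immune cell markers were also higher at 60 h, in 8 of 12 cases, with sums of 67.1 to 263 CPM, against 5.63 to 7.9 in uninjured cells. They already summed to 93.3 to 530 CPM at 32 h. Their part in the result was not tested.

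The regulators that go with myoblast differentiation and fusion rose too at 60 h. Of 15 such genes 6 of the 14 tested rose and none fell, among them the subunits of the embryonic acetylcholine receptor Chrng at 61.5 ± 0.186 CPM, against 0.368 ± 0.52 CPM in uninjured cells, and Chrnd. Mymx, the fusion peptide myomixer, was at 4.59 and 7.66 CPM with no count in uninjured cells. Myog, the factor that starts terminal differentiation, was at 136 and 148 CPM, against 31.2 and 9.35 CPM (not called). Of 24 other sarcomere and assembly genes, 5 of 23 tested rose and none fell, including Smyd1, a methyltransferase that folds myosin, Xirp1 of nascent myofibrils and Klhl40, which stabilises thin filaments, all 3 without a count in uninjured cells. Of 24 fibre genes outside the sarcomere, 4 of 23 rose and 2 fell. Of all genes 28.3% were called at 60 h, 15.5% higher and 12.8% lower, and the totals of the last 2 lists lie near that share. Eno3, muscle enolase, was at 507 CPM against 10.4 CPM on average (5.60 ± 0.54, adjusted p = 8.3e-05), while Pygm and Phkg1 of glycogen breakdown fell by 1.66 ± 0.57 and 2.52 ± 0.81.

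**Figure D4:**
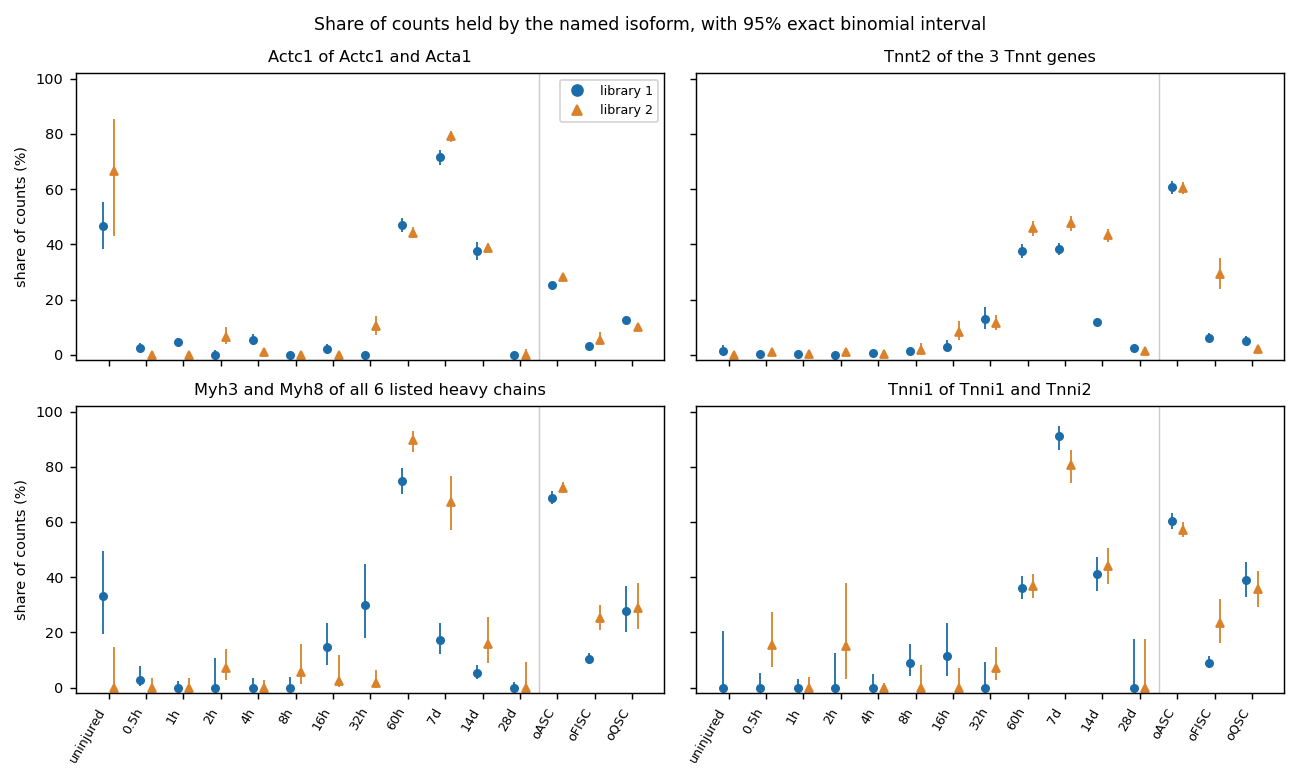
Share of counts (%) held by the named isoform among its paralogs in each library, with the 95% exact binomial interval; circles are library 1, triangles library 2. The Actc1 share is 47.0% and 44.3% at 60 h and 71.6% and 79.3% at 7 days, and 0% in both 28 day libraries.

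The isoform that held most counts for a given part of the sarcomere differed between times of repair. Shares of counts are not corrected for gene length and are compared only between libraries, and their 95% exact binomial intervals cover counting error only. Myh3 and Myh8 held 75.0% (70.1 to 79.5) and 89.5% (85.2 to 92.9) of the counts of 6 myosin heavy chain genes at 60 h, against 33.3% (19.6 to 49.6) of 42 counts and 0% of 23 counts in uninjured cells. At 7 days they held 17.2% (12 to 23.6) and 67.4% (57.0 to 76.6), at 14 days 5.25% and 15.9%, and at 28 days none of 200 and 38 counts. Actc1 held 47.0% and 44.3% of the alpha actin counts at 60 h, against 46.8% (38.4 to 55.4) and 66.7% (43.0 to 85.4) in uninjured cells, so its share was no higher at 60 h. It held 71.6% (68.8 to 74.3) and 79.3% (77.2 to 81.2) at 7 days, 37.5% and 38.8% at 14 days and 0% of 1323 and 175 counts at 28 days. Among the 3 troponin T genes Tnnt2 held 37.5% and 45.9% at 60 h, against 1.47% and 0% in uninjured cells, where Tnnt1 held 93.5% and 100%. Tnni1 held 36.2% and 36.7% of the troponin I counts at 60 h and 91.2% and 80.7% at 7 days. The heavy chain shares at 7 days and the Tnnt2 shares at 14 days, 11.7% and 43.3%, differ between libraries of 1 group by more than their intervals.

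At 7 days Tnnt2 was the immature gene called against uninjured cells, and Mybpc1, Ryr1 and Neb had the highest levels of all 30 libraries. Ttn was at 409 and 254 CPM, against 14.0 and 11.7 in uninjured cells (4.69 ± 0.53, adjusted p = 9.13e-06). Tnnt2 was at 48.1 and 47.9 CPM (7.99 ± 1.28, adjusted p = 0.000387) and Neb at 151 and 101 CPM, against 16.4 and 14.7 CPM (3.01 ± 0.57, adjusted p = 0.0015). These 3 calls held under every alternative. Tnni1 was at 12.1 and 11.5 CPM and at least 127-fold higher than in uninjured cells, a call lost without either uninjured library. Actc1 was at 56.4 and 97.5 CPM (4.56 ± 1.68, adjusted p = 0.0898), while Myh3 was at 1.02 and 2.37 CPM, and its uninjured libraries at 1.29 and 0 CPM. Of the 44 members, all tested in the fit over all 30 libraries, 9 were higher and none lower than in uninjured cells, where 11.2% of all genes were called, 5.84% higher and 5.35% lower.

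Set against 60 h, 7 members were higher at 7 days and 2 lower (16.8% of all genes called, 7.89% higher and 8.86% lower). Mybpc1 was at 274 and 267 CPM at 7 days, against 16.5 and 18.5 CPM at 60 h (3.95 ± 0.79, adjusted p = 0.00156), and Tpm1 at 111 and 119 CPM, against 472 and 449 CPM (-2.0 ± 0.38, adjusted p = 0.00106). Both held under every alternative. Ryr1 was at 117 and 93.4 CPM, against 20.5 and 24.8 CPM (2.21 ± 0.61, adjusted p = 0.0148), and Tnnt1 at 74.2 and 50.6 CPM, against 17.6 and 15.9 CPM (1.90 ± 0.60, adjusted p = 0.0325). Des fell to 167 and 170 CPM at 7 days, against 527 and 612 CPM at 60 h (-1.76 ± 0.41, adjusted p = 0.00532). Ryr1 lost the call without either 60 h library or 7 day library 1, Tnnt1 without any 1 of the 4 libraries, and Des without either 7 day library. Myh8 was at 1.24 and 2.53 CPM at 7 days with no count at 60 h, at least 29.5-fold higher, but not with DESeq2 or without any of the 4 libraries.

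At 14 days both immature and adult genes were present, with libraries far apart. Acta1 was at 43.2 and 154 CPM, Actc1 at 25.9 and 97.7 CPM, Tnnt2 at 18.2 and 61.8 CPM, and Tnnc2 at 76.2 and 18.3 CPM. Ttn was at 159 and 181 CPM, against 14.0 and 11.7 in uninjured cells (3.73 ± 0.50, adjusted p = 0.000131), and Pvalb at 9.27 and 21.6 CPM, against 0 and 0.186 CPM (7.03 ± 1.43, adjusted p = 0.00272; lost without uninjured library 1). Myog was at 85.2 and 775 CPM in the same libraries. In all 14 of 44 members were higher than in uninjured cells and none lower (12.8% of all genes called, 6.51% higher and 6.33% lower). The calls of Ttn, Tnnt2 and Tnnc2 held under every alternative, and 6 to 13 members were called when a library was left out. Without 14 day library 2 the calls of Acta1, Ckm, Neb and Tnni2 were lost. Pericyte and smooth muscle markers summed to 338 to 440 CPM at 7 days and 529 to 933 CPM at 14 days, against 204 to 309 CPM in uninjured cells, with 0 and 2 of 10 higher. Fibro-adipogenic and fibroblast markers summed to 2424 to 2704 CPM at 7 days and 1994 to 2686 CPM at 14 days, against 1185 to 1347 CPM, with 2 and 3 of 10 higher. The part of both lists in these calls was not tested.

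At 28 days 3 immature genes had no count and the fast fibre genes were unevenly present. Actc1, Myh3 and Myh8 had no count, and Tnnt2 was at 2.14 and 0.891 CPM. Against 7 days Actc1 was at least 758-fold lower and Ttn, at 22.9 and 25.9 CPM against 409 and 254 CPM, fell by 3.63 ± 0.36 (adjusted p = 0.0403 and 0.028). These were the 2 members called of 38 tested, beside 0.295% of all genes (0.0826% higher and 0.212% lower). Both calls were lost without any 1 of the 4 libraries. Against uninjured cells edgeR called 8 members higher and none lower (6.49% of all genes called, 2.29% higher and 4.2% lower), among them Ckm at 21.7 and 4.53 CPM (5.05 ± 1.07, adjusted p = 0.00716), Pvalb at 12.3 and 2.19 CPM, and Myh4 at 1.6 and 1.3 CPM. DESeq2 called 10 higher and 4 lower, and edgeR with no filter on low counts 12 and 4. All 8 calls were lost without 28 day library 1, which also had the higher red cell markers of the group, 214 against 17.6 CPM, and the higher endothelial markers, 123 against 52.7 CPM. Their part in these calls was not tested. Between 14 and 7 days no member of 38 tested was called by edgeR (0.0531% of all genes were, 0.0472% higher and 0.0059% lower). There were 11 at an unadjusted p under 0.05, and DESeq2 called 5. Myh2, Myl3, Tnnc1, Mybpc2, Mybph and Cacna1s had too few counts to be tested between these days.

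In injured old cells 3 of 5 immature genes and several common sarcomere genes were higher than in uninjured old cells. Fixation is named for oQSC but not for oASC cells, so injury and fixation cannot be told apart in this comparison. Myh3 was at 20.3 and 26.1 CPM in oASC cells, against 0.592 and 0.537 CPM in oQSC cells (5.35 ± 0.42, n = 2 per group; adjusted p = 3.47e-05). Tnnt2 was at 18.4 and 23.3 CPM, against 1.48 and 0.596 CPM (4.32 ± 0.44, adjusted p = 0.000117), and Mybph at 12.4 and 15.3 CPM, against 0 and 0.268 CPM (6.6 ± 0.73, adjusted p = 0.000191). Adora1, which overlaps Mybph, was at 0.669 and 1.27 CPM in oASC cells. Ttn was at 143 and 176 CPM, against 23.8 and 23.4 CPM (2.75 ± 0.24, adjusted p = 6.28e-05), Tpm1 at 487 and 529 CPM, against 73.0 and 80.7 CPM (2.72 ± 0.38), Tpm2 at 134 and 157 CPM, against 20.1 and 26.6 CPM (2.63 ± 0.46), and Des at 1257 and 1402 CPM, against 298 and 426 CPM (1.87 ± 0.26). Neb rose by 1.56 ± 0.26. The calls of these 8 genes held under every alternative. Actc1 was at 45.4 and 54.6 CPM, against 9.34 and 7.18 CPM (2.59 ± 0.70, adjusted p = 0.0178), a call lost without either oQSC library or oASC library 2. Actc1 and Tnni1 (2.48 ± 0.49) also lost it with all 30 libraries in the fit.

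Of the mature fibre genes, 3 slow genes and the fast gene Pvalb fell in the same comparison, while the fast myosin Myh1 rose. Tcap and Myom1 of the common class fell as well. The slow genes include Tpm3, and counts per gene do not separate its slow form from its cytoskeletal form. Mybpc1 was at 9.85 and 13.4 CPM in oASC cells, against 73.0 and 83.8 CPM in oQSC cells (-2.76 ± 0.29, adjusted p = 0.000157), and Tnnt1 at 3.18 and 4.62 CPM, against 17.7 and 15.1 CPM (-2.08 ± 0.29, adjusted p = 0.000655), both under every alternative. Pvalb was at 0.304 and 0.159 CPM, against 4.50 and 5.16 CPM (-4.37 ± 1.03), Tcap, the titin cap, at 0.831 and 0.457 CPM, against 7.63 and 7.48 CPM (-3.55 ± 0.88), and Tpm3 at 611 and 614 CPM, against 1799 and 1541 CPM (-1.46 ± 0.22). Myh1 was at 7.09 and 8.28 CPM in oASC cells, against 0.592 and 0.387 CPM in oQSC cells (3.96 ± 0.59, adjusted p = 0.000887), a call lost with all 30 libraries in the fit. Pvalb and Tcap lost their calls without oASC library 2, and Tcap also without oQSC library 1. Altogether 11 of 44 members were higher and 6 lower in oASC cells, beside 40.3% of all genes (19% higher and 21.3% lower), so the total is near that of all genes, whose median log2 fold change was -0.33. No immature gene was lower, and 1 of 8 slow genes was higher and 3 lower. Of the 15 differentiation and fusion genes 10 were higher and 1 lower, with Myog at 115 and 140 CPM, against 27.0 and 30.5 CPM in oQSC cells. Endothelial markers were lower in 7 of 10 cases, at sums of 23.1 to 30.2 CPM in oASC and 125 to 159 CPM in oQSC cells. Their part in the falls was not tested.

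oFISC cells were marked by a difference between their 2 libraries. In library 1 and library 2 Acta1 was at 264 and 16.5 CPM, Ckm at 131 and 9.97 CPM, Myl1 at 87.0 and 2.74 CPM, Myh4 at 58.5 and 4.97 CPM, Tnnt3 at 57.6 and 4.05 CPM and Mb at 27.2 and 2.74 CPM. These levels in library 1 were the highest of all 30 libraries for these 6 genes. Library 2 lies below both oQSC libraries for Acta1, Myl1 and Tnnt3 but above both for Myh4, Mb and Ckm. For Ckm the oQSC libraries were close to it, at 7.20 and 9.39 CPM. Against oQSC cells 13 members were higher and 4 lower (41.9% of all genes called, 19.3% higher and 22.6% lower). Fixation is named for oQSC but not for oFISC cells, and its part in this comparison cannot be told apart. Of 6 myosin heavy chains 5 were called higher, with Myh1 at 8.33 and 2.57 CPM, against 0.592 and 0.387 CPM (3.04 ± 0.58, adjusted p = 0.00436). Myh2 was not called, though its libraries were higher as well, at 2.31 and 2.22 CPM against 0.427 and 0.447 CPM. Mybph rose by 3.34 ± 0.75. Tpm3 fell to 418 and 432 CPM, against 1799 and 1541 CPM (-2.36 ± 0.23, adjusted p = 0.000156), and Tnnt1, Mybpc1 and Myl4 fell by 2.25 ± 0.30, 1.71 ± 0.28 and 1.42 ± 0.25. None of the 17 calls held under every alternative. Without oFISC library 1 the split turned to 3 members higher and 17 lower, and without library 2 it was 24 and 4. Without library 1 the direction of Ckm also reversed (log2 fold change -0.11) and 10 of the 17 calls were lost, and 7 to 28 members were called when each library was left out in turn. Fold changes with oFISC cells use the scaling of the old libraries alone, which puts them 0.39 (log2) lower than the ratio of the levels printed here, and those of oASC over oFISC cells 0.38 higher. All genes tested had a median change of 0.52 (log2) for oFISC over oQSC cells. Endothelial markers summed to 111 CPM in oFISC library 1 and 87.6 CPM in library 2, immune markers to 40.1 and 21.4 CPM, and red cell markers to 53.2 and 33.5 CPM.

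Set against oFISC cells, oASC cells had 14 members higher and 15 lower (67% of all genes called, 27.3% higher and 39.7% lower). The median log2 fold change was -0.60 over the members and -1.05 over all genes, or -1.31 over all genes with RLE scaling. The split rests on single oFISC libraries, with 21 higher and 5 lower without library 1, and 13 higher and 22 lower without library 2. Ckm, Myh4, Pvalb and Tcap were lower and Tpm1, Tpm2 and Ttn higher under every alternative. Ttn, for example, was at 143 and 176 CPM in oASC cells, against 62.7 and 41.1 CPM in oFISC cells (2.01 ± 0.24, adjusted p = 0.000213). Myh3 was at 20.3 and 26.1 CPM, against 3.78 and 1.79 CPM (3.49 ± 0.38, adjusted p = 0.000131), while Myh8 ran the other way, at 0.446 and 0.893 CPM against 4.78 and 2.26 CPM (-1.98 ± 0.57, adjusted p = 0.0151). The call of Myh8 was lost without oFISC library 1, without oASC library 1 and with all 30 libraries in the fit, and that of Myh3 with all 30 libraries.

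Several members were higher in uninjured old cells than in uninjured younger cells. Among them is Tpm3, whose slow and cytoskeletal forms cannot be told apart by counts per gene. In oQSC cells Acta1 was at 65.2 and 64.7 CPM, against 6.89 and 0.325 in uninjured younger cells (4.22 ± 1.17, adjusted p = 0.0121), and Tpm3 at 1799 and 1541 CPM, against 73.2 and 74.4 CPM (4.50 ± 0.69, adjusted p = 8.46e-05), the highest Tpm3 of all 30 libraries. Myl4 was at 14.8 and 14.2 CPM, against 2.57 and 2.42 CPM (2.54 ± 0.58), Myl1 at 20.8 and 18.8 CPM, against 0 and 1.12 CPM (4.98 ± 1.23), and Ckm at 7.20 and 9.39 CPM, against 0.735 and 0.139 CPM (4.39 ± 1.05). Ryr1 fell to 7.82 and 6.68 CPM, against 54.0 and 40.5 CPM (-2.70 ± 0.62, adjusted p = 0.00316), and Atp2a1 and Actn3 fell by 2.52 ± 0.66 and 1.65 ± 0.57, calls lost without either oQSC library. In all 12 of 44 members were higher and 3 lower (21.6% of all genes called, 12.3% higher and 9.31% lower), with a median change of 0.49 (log2) over all genes tested. The calls of Tpm3 and Ryr1 held under every alternative. Myl1 lost its call without uninjured library 1, and Acta1, Myl4 and Ckm without uninjured library 2. The old libraries are in a table of their own, and the oQSC libraries hold 44825828 and 47231676 counts, against 13511897 and 21381554 in uninjured cells, so age, table and depth cannot be told apart. Myod1 was at 1069.6 and 1536 CPM in oQSC cells, against 41.4 and 50.8 in uninjured cells, and Pax7 at 84.5 and 72.7 CPM, against 1746 and 1555 CPM. The list of 12 satellite cell markers summed to 27514 and 25050 CPM in oQSC cells, against 6864 and 6902 CPM in uninjured cells. These differences cannot be told apart from age either. In the younger 4 h library 2, where Pax7 was low as well, the members named above differed from uninjured cells in the same direction. Acta1 was at 71.9, Tpm3 at 800, Myl4 at 8.53, Myl1 at 18.7, Ckm at 40.5 and Ryr1 at 3.38 CPM there. Endothelial markers summed to 125 to 159 CPM in oQSC cells, against 37.3 to 73.8 in uninjured cells, red cell markers to 226 to 241 CPM, against 60.5 to 68.3, and immune markers to 79.4 to 94.5 CPM, against 5.63 to 7.9. The part of these markers in the result was not tested.

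**Figure D5:**
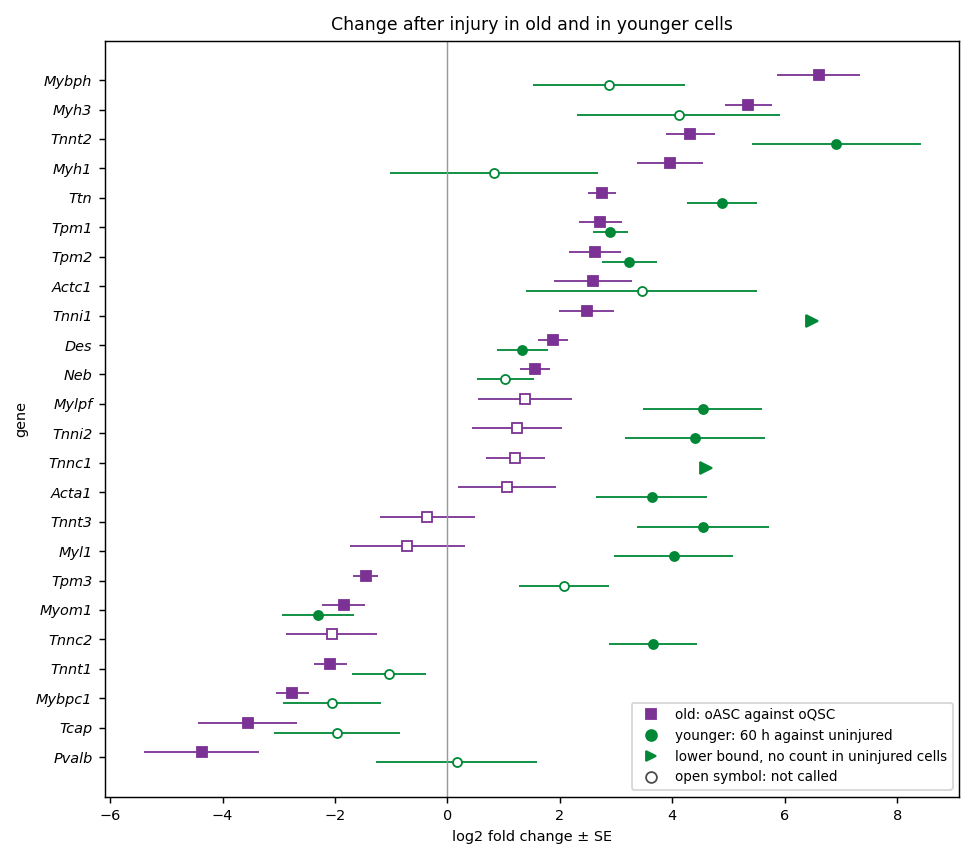
Log2 fold change ± SE of the 24 members called in either injury comparison, squares for old cells (oASC against oQSC) and circles for younger cells (60 h against uninjured), filled where called; arrowheads are lower bounds for genes with no count in uninjured cells. Ttn, Tpm1, Tpm2, Tnnt2, Tnni1 and Des are higher in both. Tpm3, Tnnc2, Myl1, Tnnt3 and Pvalb lie on opposite sides of 0, each called in only old or only younger cells.

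The response to injury was compared between old and younger cells by the difference of the 2 changes, and 3 of 44 members were called, all with the smaller or opposite change in old cells (7.28% of all genes were called, 3.29% higher and 3.99% lower). Tpm3 was lower in oASC than in oQSC cells, while in younger cells it was at 303 and 322 CPM at 60 h, against 73.2 and 74.4 in uninjured cells (difference -3.53 ± 0.87, adjusted p = 0.0165). Its change in younger cells alone was not called (log2 fold change 2.07). Tnnc2 was at 3.34 and 4.66 CPM in oASC and 17.6 and 15.6 CPM in oQSC cells (difference -5.70 ± 1.26, adjusted p = 0.00817). The change of Tnnc2 in old cells alone was not called (log2 fold change -2.06). The overlap of Tnnc2 with Ube2c holds here too. Ube2c ran the other way in old cells, at 171 and 170 CPM in oASC and 4.77 and 3.25 CPM in oQSC cells. The rise of Ttn was the smaller in old cells, with a difference of -2.13 ± 0.64 (adjusted p = 0.0475). The share called is near that of all genes. Fixation is named for oQSC, 60 h and uninjured cells but not for oASC cells, so age and fixation cannot be told apart here. All 3 calls were lost without uninjured library 1 and without either oASC library. Tpm3 lost its call under 7 of 12 alternatives and Ttn under 9, and the number called was 0 without either oASC library and 1 without either 60 h library or oQSC library 1. The changes of Tpm1, Myh3 and Des gave differences of -0.18 ± 0.52, 1.21 ± 1.81 and 0.54 ± 0.57, none called, which does not show that they were equal. Between injured old and younger cells, oASC against 60 h, Myh4 was the member called of 44 (2.2% of all genes called, 1.17% higher and 1.03% lower), at 1.03 and 1.61 CPM in oASC cells and 0 in both 60 h libraries, at least 20.7-fold higher. That call was lost without any 1 of the 4 libraries, and DESeq2 called 5 members. Age, table and fixation cannot be told apart between these 2 groups.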

How the data were processed

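RNA was made into cDNA with SMART-Seq v4 and Tn5 libraries and sequenced in paired-end mode, per the labels' protocols. The authors deposited 3 tables of whole-number counts per gene, for the time course to 60 h, the later days and the old cells. The submitters' processing notes name Trimmomatic 0.36, HISAT2 2.1.0, SAMtools 1.3, StringTie 1.3.3 and mm10, with no role or order. Which program counted the reads, with what strand setting and annotation, is not given in the sources used here. Near-identical paralogs such as the myosin heavy chains may share reads. Identifiers were matched across tables (55154).

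Tests were made with edgeR 4.0.16 (quasi-likelihood test, R 4.3.3, limma 3.58.1) on the counts as deposited, with TMM scaling, filterByExpr (minimum count 10, minimum total 15) and Benjamini-Hochberg adjustment over all genes tested. The fit used 18 libraries and 22479 genes to 60 h, 6 libraries and 16954 genes for days 7 to 28, 6 libraries and 30099 genes for old cells, and all 30 libraries and 28823 genes for comparisons between tables. In comparisons between tables, table and group cannot be told apart. Standard errors are the log2 fold change divided by the square root of F. CPM levels use TMM over all 30 libraries. A group with no count was set at 3 counts over its 2 libraries. The fits were run on simulated data with known changes, for a single comparison each. For the fit over all 30 libraries the simulation held only some of the groups. Shares have 95% exact binomial (Clopper-Pearson) intervals, and intervals and floors cover counting error only. Gene lengths come from GENCODE M21 and promoters from RefSeq (GRCm38.p6).

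Results were recomputed with DESeq2 1.42.0, with RLE size factors, with every gene kept, with a replicate block, without each library, without the libraries of 0.5 to 4 h, and with all 30 libraries fitted together. Any member could be named, with full statistics for those called at the smallest adjusted p and for high members not called, and other genes only from fixed lists where called, besides Pax7, Myod1, Myog, Mymk and Mymx. Overlapping genes and single values beyond this were chosen after their values were seen. The members and lists were chosen with earlier results of these data known.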

Additional observations from a re-analysis of the deposited data

Results flagged for a closer look

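The response to injury of 3 members differed between old cells (oASC against oQSC) and younger cells (60 h against uninjured) in the test of the difference itself, of 44 tested, where 7.28% of all genes were called. None of the 3 calls remained without either oASC library or without uninjured library 1. Tnnc2 averaged 4.00 ± 0.934 CPM in oASC and 16.6 ± 1.39 CPM in oQSC cells, and 12.3 ± 2.40 CPM at 60 h and 0.949 ± 0.433 CPM in uninjured cells (SD, n = 2 each), a difference of -5.70 ± 1.26 on the log2 scale (adjusted p = 0.00817, edgeR). It shares 74.0% of its exon length with Ube2c on the other strand, which was at 171 and 170 CPM in oASC and 4.77 and 3.25 CPM in oQSC cells. Tpm3 had a difference of -3.53 ± 0.87 (adjusted p = 0.0165), and Ttn one of -2.13 ± 0.64 (adjusted p = 0.0475). The groups come from different deposited tables. Fixation is named for oQSC, 60 h and uninjured cells but not for oASC cells. The part of table, age or fixation in these differences cannot be told apart.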

How the results depend on the processing

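With DESeq2 the number of members called was 15 at 0.5 h, 11 at 2 h, 17 at 4 h, 17 for 60 h against 32 h, 14 at 28 days, 5 for 14 against 7 days, 14 for 28 against 7 days, 5 for oASC against 60 h and 7 for the difference between old and younger responses. With no filter on low counts it was 14, 11, 17, 17, 16, 2, 8, 4 and 11 in the same order, and 34 for any change to 60 h, 15 at 7 days and 16 for 7 days against 60 h. Without the 0.5 to 4 h libraries it was 14 for 60 h against 32 h. With all 30 libraries in the fit it was 1 for 14 against 7 days, 7 for 28 against 7 days, 2 for oFISC against oQSC, 11 for oASC against oQSC and 10 for oASC against oFISC. Leaving out each library in turn gave 2 to 7 members at 0.5 h, 3 to 6 at 1 h, 0 to 6 at 2 h, 3 to 14 at 4 h, 8 to 10 at 8 h, 7 to 10 at 16 h, 4 to 9 at 32 h, 9 to 11 at 60 h, 1 to 2 for 60 h against 32 h, 4 to 6 at 7 days, 6 to 13 at 14 days, 0 to 8 at 28 days, 3 to 6 for 7 days against 60 h, 0 to 0 for 14 and for 28 against 7 days, 7 to 28 for oFISC against oQSC, 14 to 16 for oASC against oQSC, 24 to 35 for oASC against oFISC, 7 to 11 for oQSC against uninjured, 0 to 0 for oASC against 60 h and 0 to 3 for the difference of responses. Leaving out a library, the log2 fold change of Mb at 14 days ran over 0 (without 14 day library 1) to 9.61, and that of Ckm in oFISC against oQSC cells over -0.11 (without oFISC library 1) to 3.69. The cause of these changes was not tested, other than that fewer samples were fitted.

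Of 245 calls of single members, 235 were kept with RLE size factors, 237 with DESeq2, 239 with no filter and 225 with the replicate block. Of 908 repeats with a library left out, 486 kept the call. The replicate block gave 6, 8, 5, 11, 14, 15, 10 and 12 members at 0.5 to 60 h, 9 at 7 days, 13 at 14 days, 8 at 28 days and 19 for oASC against oQSC, all within 1.5 times. Same-numbered libraries showed no common deviation over the groups to 60 h (median correlation -0.0141, range -0.671 to 0.614, 6 of 36 over 0.1). Single pairs of groups were far from 0, so these correlations do not settle whether the numbers pair the samples. RLE scaling moved the median of all genes at 32 h to 0.0138, against 0.252 with TMM, and for oFISC against oQSC to 0.815, against 0.518. With 2 libraries a group, depth is not the only limit: members under a few CPM rest on few counts.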
